A study of Mus musculus with 15 samples.

Results

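The Rfx transcription factor family of the mouse has 8 members, Rfx1 to Rfx8, and all 8 were found among the 37620 gene identifiers of the deposited count tables. They were chosen by name: Ensembl identifiers were mapped to mouse symbols and the genes named Rfx1 to Rfx8 were followed in all 15 libraries. The family is of interest here because one member, Rfx6, was the gene targeted in these animals, so that its RNA can be set beside that of its 7 paralogues.

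The libraries came from the ileum, the distal segment of the small bowel, of adult mice that had received tamoxifen by repeated oral gavage. Animals of the mutant group were Rfx6f/f with Vilin-CreERT2 (spelled as in the labels): both Rfx6 alleles were flanked by loxP sites, and a Cre recombinase that tamoxifen activates was driven by the Villin promoter, a promoter used in the epithelium of the intestine and silent in muscle, nerve, blood and stromal cells of the gut wall. Control animals also carried floxed Rfx6 but no Cre, so Cre itself was present in the mutant group only. Tissue was taken 8 days after tamoxifen from 3 control animals, all Rfx6f/f, and 4 mutant animals, and 3 months after tamoxifen from 4 control animals, of which 2 were Rfx6f/f and 2 were Rfx6f/+, and 4 mutant animals.

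RFX proteins bind DNA through a winged-helix domain and recognise the X-box, an inverted repeat in which GTTGCC is followed, after a short spacer, by its reverse complement GGCAAC. Rfx1, Rfx2, Rfx3 and Rfx4 are known for the control of genes of the cilium, Rfx5 for the control of major histocompatibility complex (MHC) class II genes together with Rfxank, Rfxap and the coactivator Ciita, and Rfx7 for genes that restrain growth. Rfx6 acts in the endocrine cells of the pancreas and the gut, where it takes part in the differentiation of hormone-producing cells, while Rfx8 is little described.

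The core of this motif, GTTGC, is also found in the promoters of most family members, and the 4 shown here are those in which 2 cores lie within 30 bases of each other. The sequences are RefSeq promoter windows on GRCm38.p6, printed 5′ to 3′ on the strand of the gene, with each GTTGC or its reverse complement GCAAC in capitals.
Rfx1, chr8:84066821-84066850, plus strand: agggtgggtaGCAACaGTTGCcccggtgag
Rfx2, chr17:56831103-56831132, minus strand: tggtaaccGTTGCcgggcGCAACgccccgc
Rfx3, chr19:28011122-28011151, minus strand: gtgagttataGCAACcGTTGCcttgtgaat
Rfx6, chr10:51685513-51685542, plus strand: ataGCAACatttggtgacttctgGCAACtt
In Rfx2 the cores stand in the order of an X-box, GTTGC before GCAAC, with 5 bases between them. In Rfx1 and Rfx3 the order is the reverse, with 1 base between them, and in Rfx6 both cores read GCAAC, 15 bases apart. Over the whole windows of 300 bases, 250 before and 50 after the annotated start, 6 of the 8 members held GTTGC on either strand and 5 held at least 2 copies (Rfx1, Rfx2, Rfx3, Rfx5 and Rfx6). Rfx4 alone had 2 windows, 1 with 1 copy and the other with 0, so the 8 members had 9 windows. Among all 32851 promoter windows of this length, 35.2% held at least 1 copy and 7.95% at least 2. The longer GTTGCC, which contains GTTGC, was found in Rfx1, Rfx2, Rfx3 and Rfx6 and in 12.5% of all windows. The windows of Rfx7 and Rfx8 held neither. These are letter matches, and no binding was measured in this study.

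Total counts per library, as multiples of 1000000, lay between 30.5 and 54.5 at 8 days and between 26.1 and 36.3 at 3 months. Levels are given as counts per 1000000 (CPM) after TMM scaling of library size, and 3 counts correspond to between 0.0552 and 0.0975 CPM at 8 days and between 0.07996 and 0.117 CPM at 3 months. Such a floor covers counting error only. The summed CPM of 5 markers of the ileal enterocyte (Fabp6, Slc10a2, Vil1, Alpi and Apob) lay between 9061 and 15427 over the 15 libraries, so markers of the labelled tissue were present in each. A gene was called changed at a Benjamini-Hochberg adjusted p under 0.05 in the edgeR quasi-likelihood test over all genes tested. Of the 5 enterocyte markers 1 was called lower and 0 higher at 3 months, against 4.32% and 4.96% of all genes. An unadjusted p under 0.05 was found for 3 of them, against 29.4% of all genes. Their sum thus shows presence and not that each was steady. Fold changes compare libraries labelled mutant with libraries labelled control, and errors of means are SD. The p-values measure the spread between these animals.

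Rfx6 (ENSMUSG00000019900), the targeted gene, was not reduced in the libraries labelled mutant. At 8 days it stood at 1.61, 1.35 and 1.55 CPM in the controls and at 1.80, 2.05, 1.57 and 1.43 CPM in the mutant-labelled libraries. The ranges overlapped, and the means were 1.503 ± 0.133 (n = 3) and 1.71 ± 0.272 CPM (n = 4). The 8-day fold change was 1.144, with a 95% interval from 0.859 to 1.53 (edgeR quasi-likelihood test, adjusted p 0.867), an interval that leaves out a gene total below 0.859 of control. At 3 months Rfx6 stood at 1.77, 1.60, 1.48 and 1.51 CPM in the controls and at 3.40, 2.38, 2.37 and 2.31 CPM in the mutant-labelled libraries. Here the groups did not overlap, and all 4 libraries labelled mutant were higher than all 4 controls. The means were 1.59 ± 0.133 and 2.62 ± 0.526 CPM (n = 4 each), a fold change of 1.64 with a 95% interval from 1.26 to 2.14 (edgeR quasi-likelihood test, adjusted p 0.0347). Rfx6 therefore rose in the 3-month comparison, in the opposite direction to its label. The call was lost with an adjusted p of 0.239 when only the 2 Rfx6f/f controls were kept and of 0.112 when only the 2 Rfx6f/+ controls were kept, although the log2 fold change then was 0.67 and 0.75 against 0.72 with all 4. It was also lost without any 1 of the 4 controls (adjusted p 0.0594 to 0.0972), without mutant replicate 1, the highest library (log2 fold change 0.56, adjusted p 0.0575), and without mutant replicate 3 (adjusted p 0.0562).

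These values are totals over the whole gene. The labels do not say which exons the loxP sites flank, and reads over them were not analysed here, so the totals do not measure how much intact Rfx6 message was left. In bulk tissue, more Rfx6 RNA per cell and more cells that hold it cannot be told apart. Rfx6 shares no exon with another annotated gene. Gip, an incretin hormone gene known to depend on Rfx6, did separate the labels in every library. It had 132 to 470 counts in the 8-day controls and 0 to 2 in the 8-day mutant-labelled libraries, and 42 to 118 against 1 count in each library at 3 months. Since the Rfx6 total itself does not separate the labels in the direction of a deletion, every direction below is stated as one between labels.

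**Figure D1:**
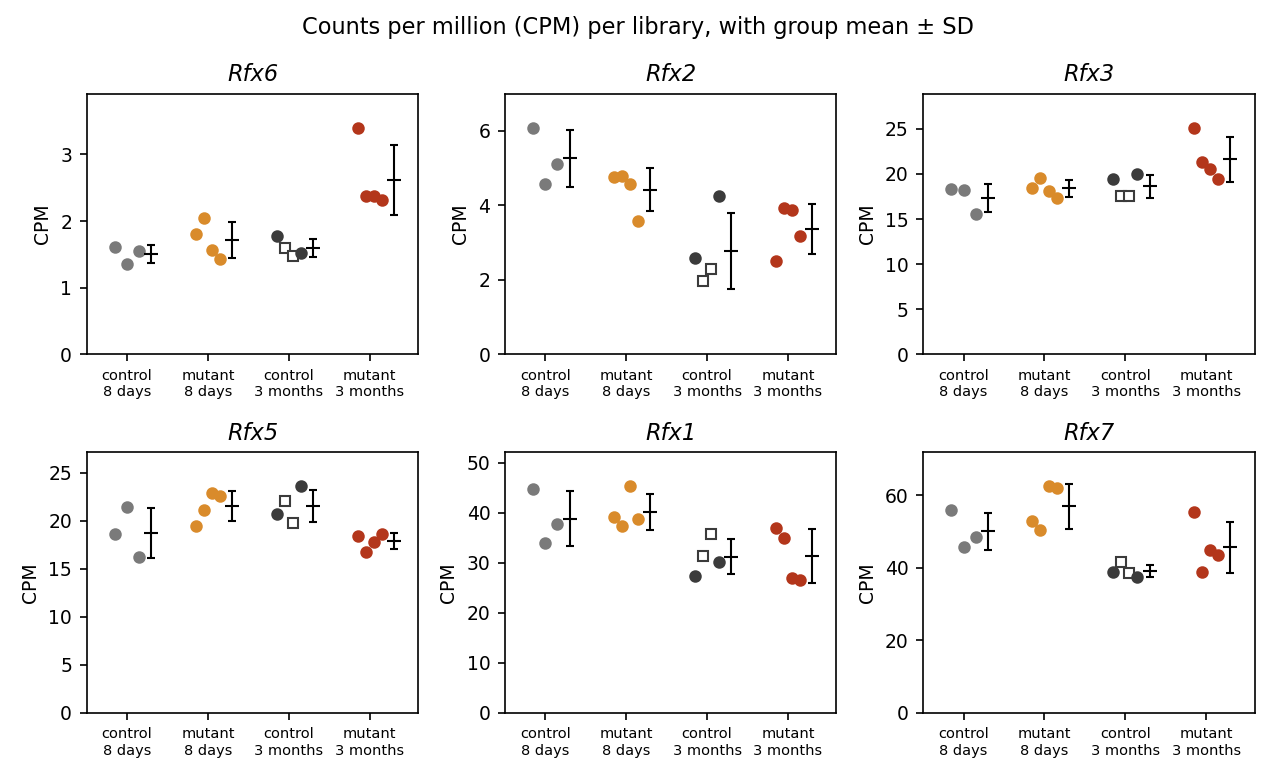
Counts per 1000000 (CPM, linear axes from 0) of the 6 Rfx genes that could be tested, by group. Each point is 1 library, open squares are Rfx6f/+ controls, and the bars are the group mean ± SD. Rfx6 of the 3-month mutant-labelled libraries lies at 2.31 to 3.40 CPM, above every control at 1.48 to 1.77 CPM, and Rfx5 of the same libraries lies at 16.7 to 18.6 CPM, below every control at 19.7 to 23.6 CPM.

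To compare genes with each other, levels were also divided by the merged exon length of each gene in GENCODE M21, which gives reads per kilobase per 1000000 counts (RPKM). Rfx1, a broadly expressed member, was highest in all 4 groups, at a mean of 6.04 RPKM in the 8-day controls, 6.24 in the 8-day mutant-labelled libraries, 4.85 in the 3-month controls and 4.88 in the 3-month mutant-labelled libraries. Rfx5 followed at 3.41, 3.92, 3.92 and 3.25 RPKM in the same order of groups, then Rfx7 at 3.27, 3.72, 2.55 and 2.98, and Rfx3 at 1.57, 1.67, 1.69 and 1.96. Rfx5 and Rfx7 overlapped in their ranges over libraries in every group except the 3-month controls, where Rfx5 overlapped with Rfx1 instead. The order of Rfx5 and Rfx7 rests on the length used. Their merged exons span 5497 and 15302 bases, and their longest transcripts 4450 and 7988. In CPM Rfx7 was above Rfx5 in all 4 groups, with group means of 39.0 to 56.9 against 17.9 to 21.5. Rfx3 was separated from its neighbours on both sides in all 4 groups.

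Rfx6 was among the lowest of the members that were expressed. In the 8-day controls its mean level of 0.375 RPKM lay below that of Rfx2 at 0.718 RPKM, with no overlap. In the 8-day mutant-labelled libraries the levels were 0.427 and 0.604 RPKM, and in the 3-month controls 0.397 and 0.379 RPKM, and in both groups the ranges of Rfx6 and Rfx2 overlapped. In the 3-month mutant-labelled libraries Rfx6 stood at 0.653 RPKM and Rfx2 at 0.460 RPKM, again without overlap but in the reverse order of that in the 8-day controls. This order rests on the merged exon lengths. In CPM, with no length correction, Rfx2 was the higher in that group, at a mean of 3.37 against 2.62. Its range of 2.51 to 3.93 CPM then overlapped with the 2.31 to 3.40 CPM of Rfx6. Rfx4 and Rfx8 were at or near 0. Rfx4 had 0 to 3 counts per library and 0 in all 4 mutant-labelled libraries at 8 days, and Rfx8 had 0 to 3 counts. No library exceeded the floor of 3 counts for either gene, so no fold was computed and no difference was detectable at this depth.

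As a share of the summed length-corrected level of the 8 members, Rfx6 made up 2.38, 2.29 and 2.66% in the 8-day controls and 2.82, 3.22, 2.18 and 2.15% in the 8-day mutant-labelled libraries. At 3 months the controls had shares of 3.37, 2.87, 2.64 and 2.65%, and the mutant-labelled libraries 5.24, 4.198, 4.43 and 4.38%. The share overlapped between labels at 8 days and did not at 3 months, where the means were 2.88 ± 0.343 and 4.56 ± 0.462% (n = 4 each). The share rests on the lengths used and was not tested.

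**Figure D2:**
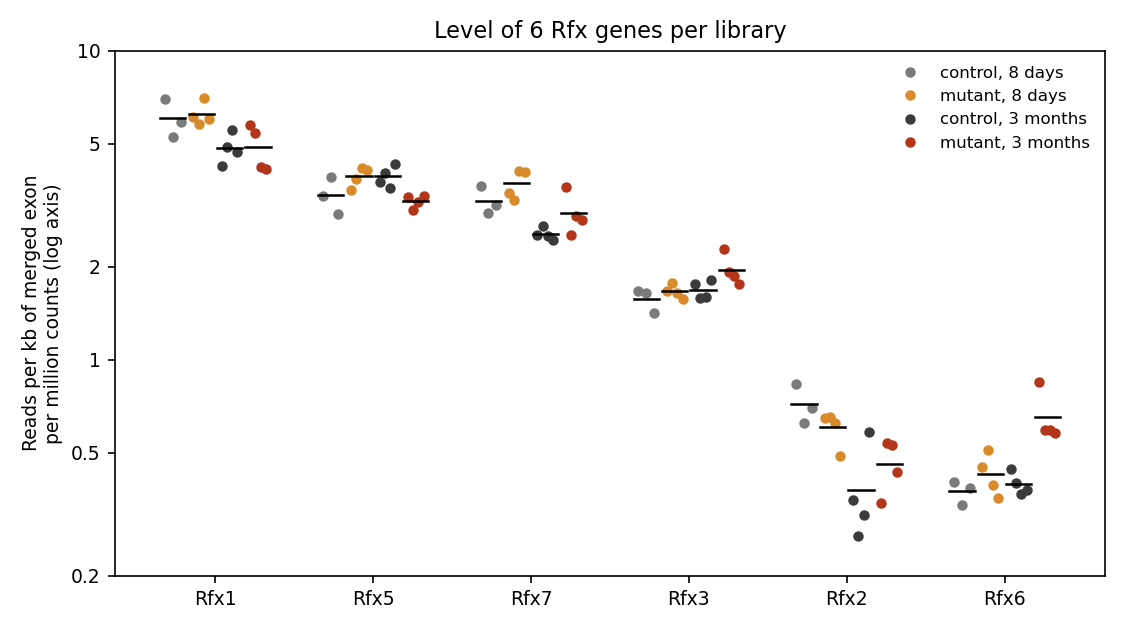
Level per length (reads per kilobase of merged exon per 1000000 counts, logarithmic axis) of 6 Rfx genes. Each point is 1 library, colours mark the 4 groups and horizontal lines are group means. Rfx1 leads in every group, with means from 4.85 to 6.24, and Rfx6 and Rfx2 lie lowest, with group means from 0.375 to 0.718.

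Of the 8 members, 6 passed the filter on low counts in each comparison, all but Rfx4 and Rfx8. At 8 days 0 of these 6 were called by edgeR, against 0.0915% of all 17493 genes tested (0.0343% higher and 0.0572% lower). At an unadjusted p under 0.05 there were also 0 members, against 8.8% of all genes, and DESeq2 and limma-voom called 0. All 6 overlapped between the labels, while 7.63% of all genes did not (3.84% higher and 3.8% lower). The fold changes ran from a log2 value of -0.25 for Rfx2 to 0.20 for Rfx5. Of the 6, 5 were above 0, against 49.3% of all genes. At 3 months 1 of 6 was called, Rfx6, against 9.28% of all 17085 genes tested, of which 4.96% higher and 4.32% lower. At an unadjusted p under 0.05 there were 3 members (Rfx3, Rfx5 and Rfx6), against 29.4% of all genes. Rfx6 and Rfx5 did not overlap between the labels, Rfx6 being higher and Rfx5 lower, against 19.2% of all genes without overlap (9.7% higher and 9.53% lower). The median log2 fold change over all genes tested was -0.00 at 8 days and 0.01 at 3 months.

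Rfx5 (ENSMUSG00000005774), the DNA-binding subunit of the complex on MHC class II promoters, differed most in its pattern from Rfx6. At 3 months it stood at 20.7, 22.1, 19.7 and 23.6 CPM in the controls and at 18.4, 16.7, 17.8 and 18.6 CPM in the mutant-labelled libraries. Every mutant-labelled library was below every control. The fold change was 0.830 (log2 -0.27, SE 0.08, 95% interval -0.44 to -0.10) and missed the threshold with an edgeR adjusted p of 0.0556. DESeq2 (adjusted p 0.0209) and a joint fit of both cohorts (adjusted p 0.0497) called it. At 8 days it stood at 18.6, 21.4 and 16.2 CPM in the controls and at 19.5, 21.1, 22.9 and 22.6 CPM in the mutant-labelled libraries, which overlapped (log2 fold change 0.20, SE 0.11, edgeR adjusted p 0.692). Part of its exons, 1471 bases, overlaps B230398E01Rik on the opposite strand, and whether the counts used strand is not given in the sources used here.

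The genes that work with Rfx5 were followed as a list of 7: Rfxank, Rfxap, Ciita, Nfya, Nfyb, Nfyc and Creb1. At 8 days edgeR called 0 of them, with 0 at an unadjusted p under 0.05 and 0 by DESeq2 and limma-voom, and at 3 months it called 1 lower and 0 higher, against 4.32% and 4.96% of all genes tested. The median log2 fold change of the list was 0.04 at 8 days and -0.01 at 3 months, beside -0.00 and 0.01 over all genes. The gene called was Ciita, the coactivator that Rfx5, Rfxap and Rfxank recruit and that sets where class II genes are on. Ciita stood at 111, 126, 123 and 145 CPM in the 3-month controls and at 57.6, 79.1, 48.8 and 76.2 CPM in the mutant-labelled libraries. All 4 mutant-labelled libraries were below all 4 controls, and the fold change was 0.519 (log2 -0.95, 95% interval -1.30 to -0.60, edgeR adjusted p 0.0126). Ciita kept its call without any 1 of the 8 libraries (adjusted p 0.00864 to 0.0413). It lost the call against the Rfx6f/f controls only (log2 -0.97, edgeR adjusted p 0.134) and against the Rfx6f/+ controls only (log2 -0.94, edgeR adjusted p 0.0538). Rfxank, at 18.2 ± 0.841 and 20.3 ± 2.09 CPM (n = 4 each), gave a log2 fold change of 0.15 (edgeR adjusted p 0.266), and Rfxap gave -0.01 (edgeR adjusted p 0.9499). At 8 days Ciita was at 65.4 ± 17.3 CPM in the controls and 82.9 ± 19.8 CPM in the mutant-labelled libraries (log2 fold change 0.34, edgeR adjusted p 0.760).

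Of 10 MHC class II genes, the best known targets of Rfx5, edgeR called 0 at either time. At 3 months all 10 had a log2 fold change below 0, with a median of -0.71 and adjusted p from 0.0582 to 0.241. An unadjusted p under 0.05 was found for 8, against 29.4% of all genes. DESeq2 called 6 lower and limma-voom 1. Over all genes DESeq2 called 2983 in either direction, against 1586 by edgeR. Of the 10, edgeR called 6 lower without mutant replicate 2 and 3 without mutant replicate 4. Over all genes the edgeR fits without 1 library called 391 to 1521. H2-DMa, a chaperone of peptide loading, came closest, at 85.8, 82.7, 87.1 and 97.96 CPM in the controls and 52.2, 78.8, 38.9 and 57.5 CPM in the mutant-labelled libraries. These did not overlap, and the log2 fold change was -0.64 (edgeR adjusted p 0.0582). H2-Eb1, a classical class II chain, averaged 529 CPM in the controls and 347 CPM in the mutant-labelled libraries (log2 -0.61, edgeR adjusted p 0.0618). At 8 days the median over the 10 genes was -0.11. Their log2 fold changes ran from -0.32 to 2.65, with 6 genes below 0 and 4 above. Although 4 had an unadjusted p under 0.05, against 8.8% of all genes, DESeq2 and limma-voom called 0. Without mutant replicate 1 of 8 days edgeR called 4 of the 10 higher, in a fit that called 200 genes of all tested. The 8-day median depended on single libraries: it was -0.37 without control replicate 3, -0.24 without mutant replicate 1, -0.01 without control replicate 1, 0.04 without mutant replicate 2 and 0.11 without control replicate 2.

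Immune-cell markers were followed beside Rfx5, Ciita and the class II genes. At 3 months the summed CPM of 5 T-cell markers was 38.9 to 48.9 in the controls and 10.0 to 27.4 in the mutant-labelled libraries, and 3 of the 5 (Cd3d, Cd3g and Cd5) were called lower, against 4.32% of all genes. That of 6 B-cell markers was 92.9 to 208 and 18.3 to 132, with 0 of 6 called by edgeR and 2 at an unadjusted p under 0.05, a share close to the 29.4% of all genes. That of 5 myeloid antigen-presenting markers was 131 to 157 and 171 to 233, with Csf1r called higher (log2 0.60), against 4.96% of all genes, and Flt3, a receptor of dendritic-cell growth, below every control (log2 -0.41, edgeR adjusted p 0.0612). Against either control genotype alone these 3 T-cell markers and Csf1r lost their calls. Without 1 library Cd3d kept its call in 4 of 8 fits, Cd3g in 1, Cd5 in 3 and Csf1r in 5. At 8 days the B-cell sum was 19.5 to 52.1 in the controls and 22.4 to 277 in the mutant-labelled libraries, with 0 of 6 called and 6 at an unadjusted p under 0.05, against 8.8% of all genes. None of these markers was at 0 in every library of a group. The part of these cells in the values of Rfx5, Ciita and the class II genes was not tested.

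Rfx3 (ENSMUSG00000040929), a regulator of ciliary genes that is also active in islet cells, stood at 19.5, 17.5, 17.6 and 19.96 CPM in the 3-month controls and at 25.1, 21.3, 20.5 and 19.4 CPM in the mutant-labelled libraries. The ranges overlapped, because the lowest mutant-labelled library lay within the controls. The log2 fold change was 0.21 (SE 0.09, edgeR adjusted p 0.163), and at 8 days it was 0.08 (SE 0.09, edgeR adjusted p 0.893). Rfx1 (ENSMUSG00000031706) averaged 31.2 ± 3.50 and 31.4 ± 5.34 CPM at 3 months, and its log2 fold change was 0.01 (SE 0.13, 95% interval -0.28 to 0.30, edgeR adjusted p 0.970). At 8 days it averaged 38.8 ± 5.50 and 40.1 ± 3.57 CPM, a log2 fold change of 0.05 (SE 0.11, edgeR adjusted p 0.967). Its sign turned under several alternatives in both comparisons.

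Rfx2 (ENSMUSG00000024206), known for ciliogenesis in the testis and other tissues, had the widest relative spread of the members tested, in the 3-month controls, where it stood at 2.57, 1.97, 2.29 and 4.26 CPM. In the mutant-labelled libraries it stood at 2.51, 3.93, 3.86 and 3.17 CPM. The groups overlapped, and control replicate 4 was the highest of the 8 libraries. The log2 fold change was 0.28 (SE 0.26, 95% interval -0.30 to 0.86, edgeR adjusted p 0.493), and with the Rfx6f/f controls alone, which include that library, it was -0.02. At 8 days Rfx2 stood at 6.08, 4.58 and 5.10 CPM and at 4.75, 4.79, 4.57 and 3.58 CPM (log2 -0.25, SE 0.16, edgeR adjusted p 0.753).

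Among 22 genes of the cilium, the targets for which these 3 members are best known, 21 were tested and edgeR called 0 at 8 days and 0 at 3 months. An unadjusted p under 0.05 was found for 3 of 21 in each comparison, against 8.8% of all genes at 8 days and 29.4% at 3 months. DESeq2 called 1 lower in each, and limma-voom called 0. The median log2 fold changes were 0.02 and 0.06. Rsph1, a radial spoke gene, came closest at 3 months, at 0.626, 0.768, 0.699 and 0.810 CPM in the controls and 0.450, 0.462, 0.480 and 0.356 CPM in the mutant-labelled libraries. Its groups did not overlap, and its fold change of 0.606 just missed the threshold (edgeR adjusted p 0.0501). Bbs2, a subunit of the BBSome of the cilium, gave a fold change of 0.688 (edgeR adjusted p 0.0953). In the joint fit of both cohorts edgeR called both lower (adjusted p 0.0496 for Rsph1 and 0.0335 for Bbs2). It also called Rsph1 with at least 10 counts in every library (adjusted p 0.0408) and Bbs2 without mutant replicate 1 (adjusted p 0.0269). At 8 days edgeR called 1 of the list lower in the joint fit, 1 with no filter on low counts and 1 without mutant replicate 1. The summed CPM of 5 markers of multiciliated cells, a type the intestine lacks, was 3.13 to 6.86 over the 15 libraries.

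Rfx7 (ENSMUSG00000037674) had the highest CPM of the family, though not the highest level per length. In the 3-month controls it stood at 38.7, 41.5, 38.6 and 37.5 CPM and in the mutant-labelled libraries at 55.5, 38.8, 44.8 and 43.5 CPM. Of the mutant-labelled libraries 3 were above every control and replicate 2 was not. The log2 fold change was 0.23 (SE 0.10, edgeR adjusted p 0.177) at 3 months and 0.19 (SE 0.10, edgeR adjusted p 0.698) at 8 days, where the values were 55.8, 45.8 and 48.5 CPM against 52.9, 50.3, 62.5 and 61.9 CPM. Exons of Rfx7 overlap 2 genes on the opposite strand, Gm27241 by 417 and Gm27232 by 597 bases.

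Of 12 growth-restraint genes linked to Rfx7, 2 were called lower and 0 higher at 3 months, against 4.32% and 4.96% of all genes tested, and the list's median log2 fold change was -0.00. An unadjusted p under 0.05 was found for 6 of 12, against 29.4% of all genes. Sesn3, a stress-induced inhibitor of mTORC1 signalling, went from 16.5 ± 1.08 CPM in the controls to 11.9 ± 1.58 CPM (n = 4 each, log2 -0.47, edgeR adjusted p 0.0316), and Junb, an AP-1 subunit, from 103 ± 6.20 to 79.9 ± 11.03 CPM (log2 -0.37, edgeR adjusted p 0.0493). Neither overlapped between labels. In the Rfx6f/f-only and Rfx6f/+-only comparisons edgeR called 0 of the 12. Each gene kept its call in 1 of 8 fits without 1 library, Sesn3 without mutant replicate 4 and Junb without mutant replicate 2, and Junb also lost it with no filter on low counts (edgeR adjusted p 0.0505). At 8 days edgeR called 0, as did DESeq2 and limma-voom, with 3 at an unadjusted p under 0.05, against 8.8% of all genes. The median was 0.24, and 11 of the 12 had a log2 fold change above 0, against 49.3% of all genes. Of the 12, 3 lay above every control and 0 below, against 3.84% and 3.8% of all genes. For Junb the difference of the log2 fold changes, 3 months minus 8 days, was -0.76 (edgeR adjusted p 0.0487), from 0.37 at 8 days to -0.37 at 3 months. This call was kept in 4 of 15 fits without 1 library (edgeR adjusted p 0.0185 to 0.101 over the 15).

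**Figure D3:**
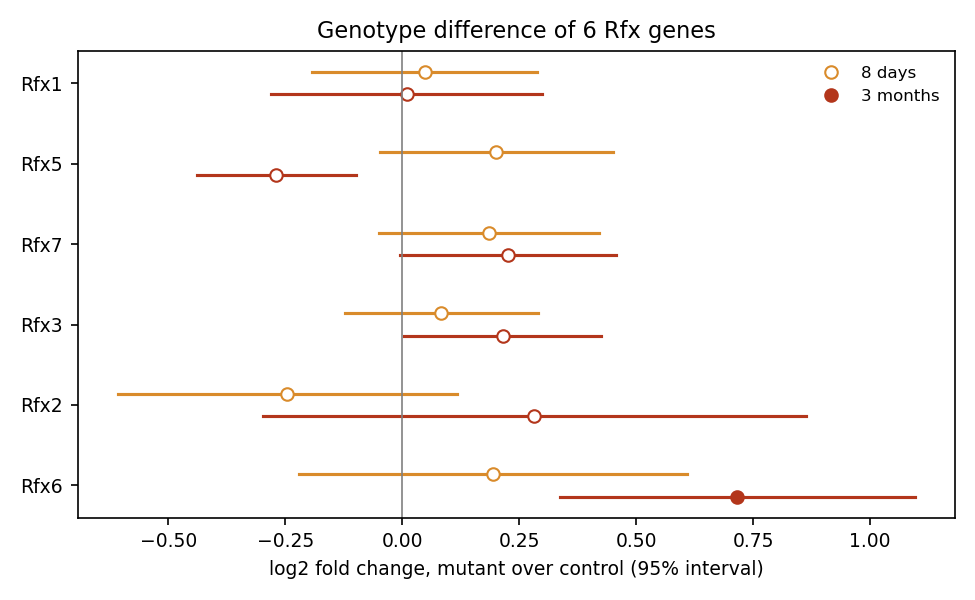
Log2 fold change of 6 Rfx genes, libraries labelled mutant over control, with 95% intervals from edgeR, at 8 days (orange) and 3 months (red). The filled circle marks the single call at an adjusted p under 0.05, Rfx6 at 3 months (0.72, interval 0.34 to 1.10), and Rfx5 at 3 months has an interval wholly below 0 (-0.44 to -0.10).

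The change of each member between labels was compared across the 2 time points in a joint model of all 15 libraries. Time and cohort cannot be told apart in this design. Of the 6 members tested edgeR called 0, against 0.785% of all 17959 genes (0.379% higher and 0.406% lower). At an unadjusted p under 0.05 there was 1 member, against 16.6% of all genes, and DESeq2 called 1, in both cases Rfx5. For Rfx6 the difference of the log2 fold changes, 3 months minus 8 days, was 0.50 (SE 0.24, 95% interval -0.01 to 1.01, edgeR adjusted p 0.309), so its rise at 3 months was not shown to differ from its 8-day value. For Rfx5 the difference was -0.49 (SE 0.13, 95% interval -0.77 to -0.21, edgeR adjusted p 0.0745), and it was called by DESeq2 (adjusted p 0.0209) and by edgeR without mutant replicate 1 of 8 days (adjusted p 0.0364). Rfx2 gave 0.51 (SE 0.32, edgeR adjusted p 0.447), and Rfx1, Rfx3 and Rfx7 gave -0.06, 0.11 and 0.02. For Ciita it was -1.31 (edgeR adjusted p 0.0553). Of the 7 genes that work with Rfx5, 1 was called lower for this difference by DESeq2, and by edgeR with no filter and without mutant replicate 1 or 2 of 8 days or mutant replicate 2 or 4 of 3 months.

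The 3-month controls also allow a comparison of animals with 1 and with 2 floxed Rfx6 alleles, neither with Cre. Rfx6 stood at 1.60 and 1.48 CPM in the 2 Rfx6f/+ controls and at 1.77 and 1.51 CPM in the 2 Rfx6f/f controls, which overlapped (log2 fold change -0.10, SE 0.26, 95% interval -0.69 to 0.49, edgeR adjusted p 0.953). Of the 6 members tested 0 were called by edgeR or DESeq2 and 0 had an unadjusted p under 0.05. Over all genes edgeR called 0% of 17780, with 6.86% at an unadjusted p under 0.05 and 48 genes by DESeq2. Of the 6 members 3 did not overlap between the control genotypes, Rfx1 higher and Rfx2 and Rfx3 lower in Rfx6f/+, against 46% of all genes (21.8% higher and 24.2% lower). Rfx2 differed most in size, at 1.97 and 2.29 CPM against 2.57 and 4.26 CPM (log2 -0.68, SE 0.31, edgeR adjusted p 0.736).

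Rfx6 was next set beside 13 other transcription factors of endocrine cells. At 8 days 12 were tested and 2 called lower, Isl1 (log2 -5.03, edgeR adjusted p 0.00342) and Pax6 (log2 -1.87, edgeR adjusted p 0.0207), both regulators of hormone genes, against 0.0572% of all genes called lower. At 3 months 11 were tested, 4 called higher and 2 lower, against 4.96% and 4.32% of all genes. Isl1 and Pax6 were again the 2 lower ones (log2 -3.37 and -2.24), while Pax4, Lmx1a, Nkx2-2 and St18 rose with log2 fold changes of 1.94, 1.80, 1.147 and 0.64. Rfx6 at 0.72 lay close to the list's median of 0.64. At 8 days Pax6 kept its call in 2 of 7 fits without 1 library. At 3 months Isl1, Pax6 and Lmx1a kept theirs in all 8 such fits, Pax4 in 7, Nkx2-2 in 2 and St18 in 1, and with the Rfx6f/f controls alone edgeR called 0 higher and 1 lower at 3 months. The 1 lower was Isl1. With the Rfx6f/+ controls alone it called 1 higher, Lmx1a, and 2 lower, Isl1 and Pax6, while Pax4, Nkx2-2 and St18 lost their calls (edgeR adjusted p 0.0635, 0.0895 and 0.151).

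Of 9 genes linked to Rfx6 in islet or endocrine cells, 8 were followed and 7 were tested at 8 days and 6 at 3 months. Gip and Abcc8 were called lower at both times, against 0.0572% of all genes at 8 days and 4.32% at 3 months. Abcc8, a subunit of the ATP-sensitive potassium channel, went from 4.53 to 1.97 CPM at 8 days (log2 -1.20, edgeR adjusted p 0.0115) and from 3.18 to 1.82 CPM at 3 months (log2 -0.80, edgeR adjusted p 0.0256), and it kept its call in 2 of 7 and 5 of 8 fits without 1 library. At 3 months it lost the call against the Rfx6f/f controls only (edgeR adjusted p 0.135) and the Rfx6f/+ controls only (edgeR adjusted p 0.111). Slc2a2, a glucose transporter of enterocytes and beta cells, was called higher at 3 months, at 3.24 to 5.71 CPM in the controls and 44.0 to 113 CPM in the mutant-labelled libraries (log2 4.23, edgeR adjusted p 0.000555). At 8 days its ranges overlapped, at 66.2 to 117 and 42.3 to 165 CPM. At 3 months 1 of the 6 tested was thus called higher and 2 lower by edgeR, and 4 higher and 2 lower by DESeq2. All 6 had an unadjusted p under 0.05, against 29.4% of all genes. With no filter on low counts edgeR tested 8 and called 1 higher and 3 lower, with a median log2 fold change of -0.20. In the joint fit of both cohorts it tested 7 and called 2 higher and 3 lower.

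**Figure D4:**
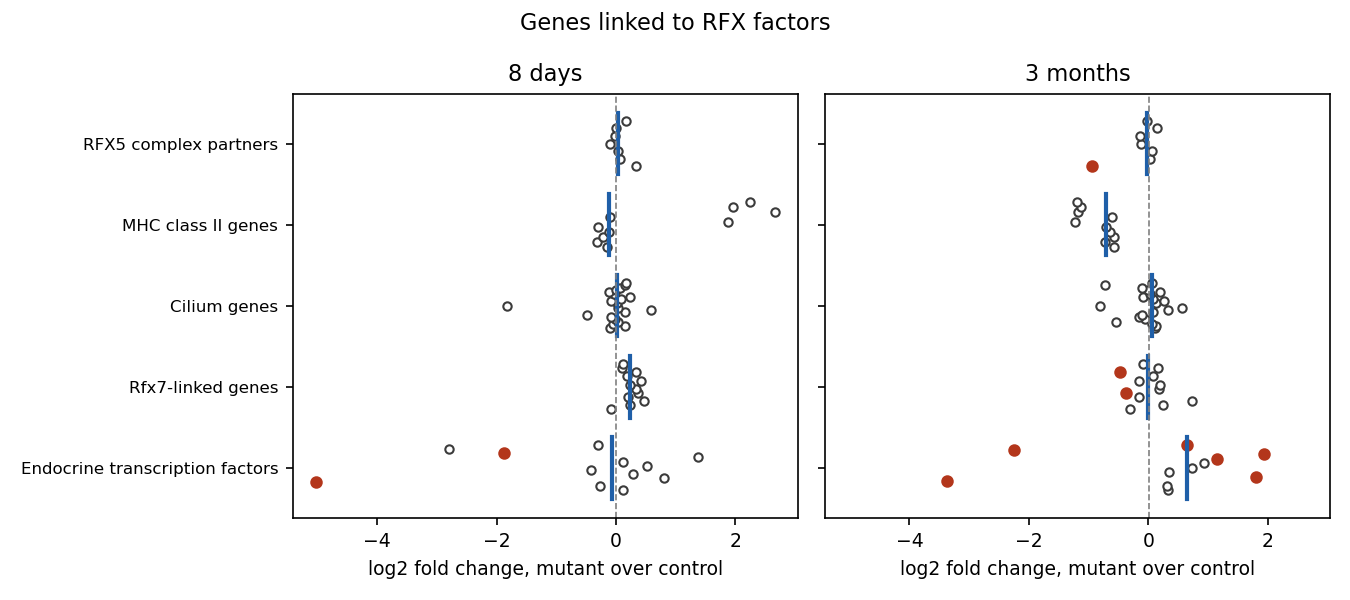
Log2 fold change, libraries labelled mutant over control, of the genes linked to RFX factors that could be tested, at 8 days (left) and 3 months (right). Each circle is 1 gene, filled where it was called by edgeR at an adjusted p under 0.05, and blue lines are list medians. All 10 MHC class II genes lie below 0 at 3 months (median -0.71) with 0 filled, and the cilium genes centre on 0.02 and 0.06.

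Of 6 markers of the enteroendocrine cell, the cell type that holds Rfx6, 2 were called higher at 3 months, Chga and Chgb, which encode granule proteins, against 4.96% of all genes, and the other 4 were not called. The summed CPM of the 6 was 163 to 217 in the controls and 370 to 480 in the mutant-labelled libraries, and without Chga and Chgb it overlapped, at 71.5 to 91.4 and 79.6 to 107. That of 5 markers of serotonin-producing enterochromaffin cells was 99.4 to 113 and 160 to 172, with 4 of 5 called higher, against the same 4.96%. At 8 days the first sum was 121 to 164 and 137 to 186, with 0 called by edgeR and 3 at an unadjusted p under 0.05, against 8.8% of all genes. Neurod1 and Pcsk1 then lay below every control (log2 -0.42 and -0.35) and 0 of the 6 lay above, against 3.8% of all genes below and 3.84% above. Of the 5 enterochromaffin markers 0 were called at 8 days and 2 had an unadjusted p under 0.05, against the same 8.8%. Tph1, the enzyme of serotonin synthesis, and Lmx1a lay above every control (log2 0.66 and 0.80), against 3.84% of all genes, and 0 of the 5 lay below, while the sum overlapped, at 79.4 to 109 and 95.6 to 120 CPM. Per 1000 counts of Chga, a general endocrine granule gene, Rfx6 had 55.0, 59.3, 47.1 and 41.5 counts in the 3-month controls and 36.3, 26.2, 23.0 and 25.2 in the mutant-labelled libraries. The ratio was thus lower in every mutant-labelled library, while the Rfx6 level itself was higher. Per 1000 counts of Chgb it was 17.0 to 27.5 and 8.81 to 13.8, and per 1000 counts of Tph1 125 to 286 and 71.6 to 111. At 8 days all 3 ratios overlapped, for Chga at 38.9 to 63.9 in the controls and 27.2 to 61.3 in the mutant-labelled libraries. The 3 reference genes were chosen after their values were seen and are themselves higher at 3 months, so the ratios were not tested and their cause cannot be told apart from the rise of those genes. Chga, Chgb and Tph1 rose by 2.99, 3.43 and 3.65 and Rfx6 by 1.64, so choosing them fixed a lower ratio in advance. The other 4 enteroendocrine markers summed to 82.6 ± 8.46 CPM in the 3-month controls and 88.5 ± 13.0 CPM in the mutant-labelled libraries. No ratio to them was computed.

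**Figure D5:**
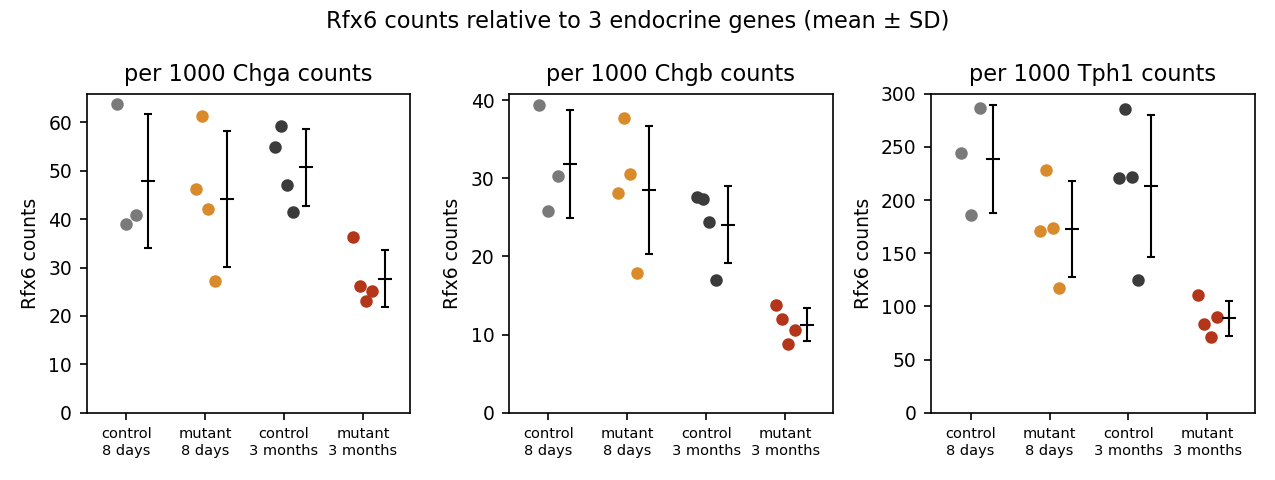
Rfx6 counts per 1000 counts of Chga, Chgb and Tph1 by group, linear axes from 0. Each point is 1 library and bars are mean ± SD. In the 3-month mutant-labelled libraries the ratio to Chga is 23.0 to 36.3 against 41.5 to 59.3 in the controls, and at 8 days the labels overlap in all 3 panels. All 3 reference genes are themselves higher at 3 months, and ratios to other endocrine markers were not computed.

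The genes whose profile was most like that of Rfx6 were sought by the root mean square difference of log2 CPM over the 15 libraries, after subtracting each gene's mean within each cohort. Among 13517 candidates these were Trio (0.141), a guanine nucleotide exchange factor, Slc18a1 (0.141), the monoamine transporter of enterochromaffin cells, Acvr1 (0.143), a BMP receptor, Meis3 (0.146), a homeobox factor, and Insr (0.146), the insulin receptor. The median candidate lay at 0.344, and Rfx6 deviated from its own cohort means by 0.305. Each of the 5 was higher at 3 months, with log2 fold changes of 0.50 to 0.66 and edgeR adjusted p from 0.00764 to 0.0376. Slc18a1 kept its call in all 8 fits without 1 library and the others in 2 to 5. Against the Rfx6f/f controls only edgeR called 0 of the 5 (adjusted p 0.119 for Slc18a1 to 0.26 for Meis3), and against the Rfx6f/+ controls only it called Slc18a1 alone (adjusted p 0.034). None of the paralogues was among them. Rfx3 was the closest at 0.215 and Rfx7 followed at 0.251, while Rfx1, Rfx2 and Rfx5 lay at 0.323, 0.390 and 0.409, so that Rfx2 and Rfx5 were farther from Rfx6 than the median gene. The measure favours genes with a group difference as large as that of Rfx6 and says nothing of shared control.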

How the data were processed

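The authors deposited unnormalized read counts for each Ensembl gene, in 1 table per cohort with 1 column per animal. Per the submitters' processing notes, these counts were made with mm9 and with bcl2fastq 2.17.1.14, Bowtie 1.0.0, TopHat2 2.0.10, Bowtie2 2.1.0 and HTSeq 0.6.1. The annotation release and strand setting are not given in the sources used here. Per the labels' protocols, total RNA was depleted of ribosomal RNA, while the molecule label names polyA RNA. The protocols name 2 RNA extraction methods without assigning them to samples, so this batch could not be modelled. Symbols for 32897 of the 37620 identifiers (87.45%), exon lengths and overlaps came from GENCODE M21 on GRCm38, and promoters from RefSeq on GRCm38.p6. All 8 members matched a promoter window.

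Groups came from the genotype and time labels, and replicates were numbered in deposit order. Each cohort had its own edgeR fit (version 4.0.16 in R 4.3.3, quasi-likelihood F test, filterByExpr with a minimum count of 10, TMM scaling, two-sided). Adjusted p is Benjamini-Hochberg over all genes tested. The difference between time points was an interaction contrast over 15 libraries, and the Rfx6f/+ and Rfx6f/f controls were set against each other in a 3-group fit of the 3-month table. Alternatives were DESeq2 1.42.0, limma-voom (limma 3.58.1), RLE scaling, library size without the 20 most counted genes, no filter, at least 10 counts in every library, robust empirical Bayes, a joint fit, 1 control genotype only, other lengths, and each library left out. Leaving out controls in the genotype comparison was added after seeing the data. The procedure was tested on simulated counts with planted changes larger than those of the Rfx members in the main fits. That test therefore does not cover changes of their size.

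Named genes were the 8 members, Rfxank, Rfxap and Ciita, up to 6 called genes with the smallest p at 3 months per list (or the 2 with the smallest p where none was called), and the 5 genes nearest to Rfx6. Chga, Chgb, Tph1, Neurod1, Pcsk1, Flt3 and the immune markers called were named outside this rule after their values were seen. The members and lists were chosen with earlier results of these data known. Kcnj11, a ninth gene linked to Rfx6, was not analysed here.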

Additional observations from a re-analysis of the deposited data

Results flagged for a closer look

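In groups of 4, 5 values stood apart from the other 3 by more than the 95% critical value of Dixon's test, out of 113 such checks, where chance would give about 5.65 at 1 in 20. Rfx6 was at 3.40 CPM in replicate 1 of the 3-month mutant-labelled libraries, with the others at 2.31 to 2.38 CPM. Without that library the group was still above every control, at a log2 fold change of 0.56, and edgeR's adjusted p was 0.0575. Rfx8 was at 0 CPM in replicate 2 of the 3-month controls, with the others at 0.0348 to 0.0388 CPM, which is 0 against 1 count. Lmx1a was at 2.47 CPM in replicate 4 of the 8-day mutant-labelled libraries, with the others at 2.21 to 2.23 CPM. Slc2a2 was at 5.71 CPM in replicate 1 of the 3-month controls, with the others at 3.24 to 3.38 CPM. Csf1r was at 147 CPM in replicate 3 of the 3-month mutant-labelled libraries, with the others at 104 to 109 CPM.

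Of the genes named in the text and carried through every alternative, 4 passed the test of the difference between the time points with edgeR. Over all genes tested 141 of 17959 passed, or 0.785%. Many of the named genes were picked by their values at 3 months, so these counts cannot be compared. The log2 fold change of Junb differed by -0.76 (edgeR adjusted p 0.0487), called in 7 of 18 alternatives with adjusted p from 0.00123 to 0.101. That of Slc2a2 differed by 3.96 (edgeR adjusted p 0.0179), called in 16 of 18 alternatives with adjusted p from 1.23e-06 to 0.0565. That of Chga differed by 1.25 (edgeR adjusted p 0.0231), called in 14 of 18 alternatives with adjusted p from 4.5e-06 to 0.079. That of Chgb differed by 1.38 (edgeR adjusted p 0.0231), called in 13 of 18 alternatives with adjusted p from 4.03e-06 to 0.079. No Rfx gene passed this test with edgeR, and Rfx5 passed it with DESeq2 (adjusted p 0.0209).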

How the results depend on the processing

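Over 18 alternatives Rfx6 at 3 months kept its direction (log2 0.56 to 0.77), and edgeR, DESeq2 or limma-voom called it in 10 (adjusted p 0.00996 to 0.239). The call was lost with Rfx6f/f controls only (0.67), with Rfx6f/+ controls only (0.75), and in 6 of 8 fits without 1 library (0.56 to 0.77). At 8 days it ran from 0.10 to 0.27 and was called in 0 of 15. Members called at 3 months were 2 with DESeq2 and the joint fit, 0 with either control genotype alone and 0 to 1 without 1 library. For the difference between times they were 1 with DESeq2 and 0 to 1 without 1 library (Rfx5, without mutant replicate 1 of 8 days). The Rfx6 share of the family came, in the order 8-day control, 8-day mutant, 3-month control and 3-month mutant, to 1.86, 1.98, 2.26 and 3.54% with longest transcripts and to 1.143, 1.21, 1.39 and 2.12% with no length correction.

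Genes called at 8 days were 16, and 178 with DESeq2, 27 with no filter, 25 in the joint fit and 8 to 200 without 1 library (200 without mutant replicate 1). At 3 months they were 1586, and 2983 with DESeq2, 36 with Rfx6f/f and 416 with Rfx6f/+ controls only, and 391 to 1521 without 1 library. For the difference between times they were 141, and 1017 with DESeq2, 223 with no filter and 10 to 749 without 1 library. For the control genotypes they were 0, and 48 with DESeq2 and 0 to 2 without 1 library.

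Small values changed sign. The control-genotype value of Rfx6 was 0.0367 without control replicate 1, and without 1 library ran from -0.19 to 0.0367. At 3 months Rfx1 became -0.0068 in the joint fit and -0.11 with Rfx6f/+ controls, Rfx2 -0.0208 with Rfx6f/f controls, and Rfxap 0.0043 without the 20 most counted genes and 0.10 with Rfx6f/f controls. Without 1 library Rfx1 ran from -0.0403 to 0.16 at 8 days, -0.0787 to 0.081 at 3 months and -0.16 to 0.0379 for the difference between times. In the same fits Rfxap ran from -0.11 to 0.0412 at 3 months, Rfx7 from -0.0884 to 0.0944 for the difference, Rfx5 from -0.16 to 0.0253 between control genotypes, and Slc2a2 from -0.0913 to 0.56 at 8 days. The causes were not tested. No paired analysis was possible because the labels give the animals no shared replicate numbers. Fits with 1 library fewer assume that the rest vary alike, and Rfx4 and Rfx8 are limited by depth.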
